A study of Mus musculus with 2 samples.

Results

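The genes described here encode 10 surface molecules by which dendritic cells (DC) exchange signals with T cells or, for CD200, with myeloid cells: Cd40, Cd80, Cd86, Cd274, Pdcd1lg2, Icosl, Tnfsf4, Tnfsf9, Cd70 and Cd200. All 10 are called ligand genes below, although CD40 is a receptor. They were taken by symbol, and each was found once among the 32285 genes of both libraries. Splenic DC of naive female mice, 4 months old, were measured by single-cell RNA sequencing (scRNA-seq) of 3′ ends, with the cells of 3 mice pooled into 1 library for each genotype. One library came from WT mice (H2-Aa +/+) and the other from H2-Aa cit/cit mice, which carry an ENU-induced splice allele of the gene for the MHC-II alpha chain on a C57BL/6J background. Cells were enriched for CD11c and sorted as live CD45.2+ CD11c+ cells in both genotypes. Which mouse a cell came from is not recorded, so genotype, library and pool of mice cannot be told apart. With 1 library per genotype there was no replicate check and no test. All intervals are 95% intervals for counting error alone, exact Poisson for levels, exact conditional binomial for ratios and exact Clopper-Pearson for shares of cells.

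T cells read the peptide on MHC together with co-signals from the DC. CD80 and CD86 bind CD28, which costimulates, and CTLA-4, which inhibits, whereas CD274 (PD-L1) and PDCD1LG2 (PD-L2) bind the inhibitory receptor PD-1. ICOSL, TNFSF4 (OX40L) and TNFSF9 act on receptors of activated or memory T cells, and CD70 binds CD27 on T cells. CD40 is itself a receptor, triggered by CD40 ligand on helper T cells, and CD200 signals to the inhibitory receptor CD200R1 on myeloid cells. DC that mature take up less antigen, gain the chemokine receptor CCR7 and move to T cell zones, and higher costimulation is part of the textbook picture of that state.

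Cells numbered 7814 for WT and 11525 for H2-Aa cit/cit, with 51020804 and 72652201 unique molecular identifiers (UMIs) in total and medians of 5492 and 5633 per cell. H2-Aa was at 5409.7 UMIs per 1000000 (CPM) in the WT library and at 66.2 CPM in the H2-Aa cit/cit library, in the direction of the labels. At least 1 UMI of the DC genes Itgax and Flt3 was found in 56.3% and 72.0% of cells from WT mice and in 62.5% and 70.6% from H2-Aa cit/cit mice. The libraries shared 31 cell barcodes. Ribosomal protein genes took a median of 10.5% of a WT cell's UMIs and 15.5% of an H2-Aa cit/cit cell's, so this share moved with genotype, and results it touches are given also within cells of like share.

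Cells were assigned to classes by summed UMIs of marker genes, none of which is among the 10. Mature DC had at least 4 UMIs of Ccr7, Fscn1, Socs2 and Cacnb3 together, which gave 1939 cells of WT mice (24.8%) and 1278 of H2-Aa cit/cit mice (11.1%). Of these, 218 WT and 39 H2-Aa cit/cit cells also had at least 3 UMIs of 6 cDC1 markers. Resting DC had at most 1 UMI of the maturation genes and enough UMIs of cDC1 or cDC2 markers, and they numbered 2979 and 6177. Since the gates count UMIs, they favor deep cells, and the mature cells with cDC1 genes had medians of 13150.5 and 13060 UMIs. Those without had 6609 and 5352. Below, cDC1 and cDC2 lineage name comparisons of mature cells with and without cDC1 genes against resting cDC1-like and cDC2-like cells. The origin of the mature cells without cDC1 genes was not shown, and shallow cells of cDC1 origin can lie among them. Their cDC2 markers were at 310 CPM in WT, against 1204 CPM in resting cDC2-like cells. The level of a gene is its share of all UMIs in a class, given per 1000000 (CPM), and log2 ratios compare such levels of the same gene.

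RefSeq promoter sequence for GRCm38.p6 was at hand for 5 of the 10 genes (Cd80, Cd274, Pdcd1lg2, Icosl and Cd200). It is shown for the 3 of them that stood higher in mature DC and for Pdcd1lg2, the neighbor of Cd274 that stood within 2-fold. Each line gives the 250 bases before the RefSeq start site, 5′ to 3′ on the strand of the gene, and capitals mark matches to the NF-kB consensus, the motif bound by the transcription factors downstream of CD40.
Icosl, chr10:78069118-78069367, plus strand: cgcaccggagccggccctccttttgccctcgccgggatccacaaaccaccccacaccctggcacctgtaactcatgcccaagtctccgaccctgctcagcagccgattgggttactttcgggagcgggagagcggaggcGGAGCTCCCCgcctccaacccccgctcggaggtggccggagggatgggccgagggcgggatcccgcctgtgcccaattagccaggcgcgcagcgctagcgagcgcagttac
Cd274, chr19:29367188-29367437, plus strand: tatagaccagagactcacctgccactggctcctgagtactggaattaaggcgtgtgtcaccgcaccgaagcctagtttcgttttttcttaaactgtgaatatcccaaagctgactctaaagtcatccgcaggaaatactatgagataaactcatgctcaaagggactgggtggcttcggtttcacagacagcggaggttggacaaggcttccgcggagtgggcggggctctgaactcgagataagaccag
Cd200, chr16:45409054-45409303, minus strand: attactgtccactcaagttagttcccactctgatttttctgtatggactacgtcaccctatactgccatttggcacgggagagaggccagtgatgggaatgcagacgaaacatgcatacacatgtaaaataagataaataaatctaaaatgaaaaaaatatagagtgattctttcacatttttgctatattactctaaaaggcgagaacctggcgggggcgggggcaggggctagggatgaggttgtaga
Pdcd1lg2, chr19:29410669-29410918, plus strand: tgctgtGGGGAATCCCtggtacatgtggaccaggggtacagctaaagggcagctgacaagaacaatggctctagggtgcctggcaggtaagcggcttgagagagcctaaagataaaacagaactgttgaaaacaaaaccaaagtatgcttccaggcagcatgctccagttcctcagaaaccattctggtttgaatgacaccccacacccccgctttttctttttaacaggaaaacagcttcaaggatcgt
The Icosl window had 68.8% G and C and 23 CpG sites, and the Cd200 window 42.4% and 6. Searched on both strands, the NF-kB consensus matched in Icosl on the strand opposite to the gene, at positions -111 to -102 from the start site, and in Pdcd1lg2 on both strands, at -244 to -235. It was in 7.25% of the 32851 promoter windows of the same length. The interferon motif TTCNNNGAA, in 7.02% of these windows, had no match in the 5 genes, and neither had a pair of TTTC repeats spaced by 2 bases, which was in 2.98%. A match is a string of letters and not evidence of binding.

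Mature DC of both libraries held more mRNA of Cd200, Icosl, Cd40 and Cd274 than resting DC, whereas Cd80, Cd86 and Pdcd1lg2 stood within 2-fold of resting DC. Of the 10 genes, 7 reached 10 CPM in mature or resting DC, and 4 of these were more than 2-fold higher in the mature cells in each library and 0 more than 2-fold lower. Over all genes measured at this level, 12.3% were past 2-fold higher and 16.7% past 2-fold lower in WT, 11.3% and 9.09% among H2-Aa cit/cit cells, and 9.59% higher and 8.11% lower in both. The median log2 ratio of the 7 genes was 1.31 in WT and 1.04 among H2-Aa cit/cit cells, and over all genes -0.21 and -0.10. Cd200 passed the minimum of 10 CPM only through the mature cells. Scaling by the median ratio of all genes would set the zero of this scale at -0.17 in WT and -0.10 among H2-Aa cit/cit cells, so ratios no farther from 0 than that (Cd80 and Cd86 in both, Pdcd1lg2 in WT) have no direction of their own. The count in H2-Aa cit/cit was 3, with Cd274 (1.04) then under 2-fold, under a gate of 8 maturation UMIs (0.96), resting DC of any maturation sum under 4 (0.96) and the mean over cells of counts per 10000 (0.89). Within ranges of ribosomal share, Cd274 was past 2-fold only from 15%, in both libraries.

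**Figure D1:**
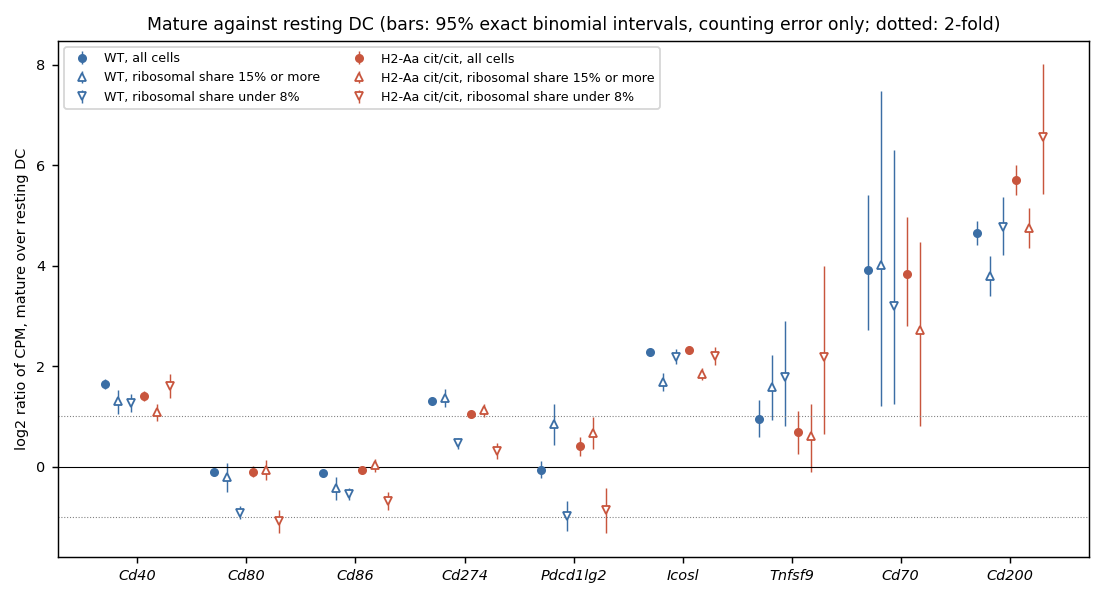
Log2 ratio of CPM in mature over resting DC (y axis) for each ligand gene in the WT and the H2-Aa cit/cit library, over all cells and within cells of at least 15% or under 8% ribosomal protein UMIs, with 95% exact binomial intervals for counting error. Cd40, Icosl and Cd200 lie above the 2-fold line in all 6 estimates, and Cd80 moves from -0.10 over all cells to -0.92 and -1.08 within cells of low ribosomal share. Tnfsf4 and ratios with 0 UMIs on a side are left out.

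CD40 is the receptor through which helper T cells license DC. Cd40 (chromosome 2, 165055627 to 165072948, plus strand of GRCm38) was at 59.8 CPM (56.6 to 63.1) in resting and 187 CPM (180 to 194) in mature WT cells, and at 61.0 (58.8 to 63.4) and 162 CPM (153 to 171) among H2-Aa cit/cit cells. The log2 ratios were 1.65 (1.55 to 1.74) and 1.41 (1.31 to 1.50). In the cDC1 lineage, from resting cDC1-like cells to mature cells with cDC1 genes, the WT level went from 39.3 to 196 CPM and the H2-Aa cit/cit level from 50.4 to 132 CPM. Along the summed maturation UMIs, Cd40 stood higher in each further bin of both libraries, from 58.4 CPM at 0 UMIs to 216 CPM at 16 or more in WT cells and from 61.0 to 194 CPM among H2-Aa cit/cit cells. Within cells of under 8% ribosomal share its log2 ratio was 1.26 in WT and 1.60 among H2-Aa cit/cit cells, and within cells of at least 15% it was 1.30 and 1.08.

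CD80 and CD86 share their receptors, and over all cells neither gene differed by 2-fold between mature and resting DC. Cd80 (chromosome 16, 38455561 to 38496335, plus strand) was at 134 CPM in resting and 125 CPM in mature WT cells (log2 ratio -0.10, -0.18 to -0.02), and at 96.6 and 90.1 CPM among H2-Aa cit/cit cells (-0.10, -0.21 to 0.01). These ratios depended on the ribosomal share of the cells compared. Among cells under 8%, Cd80 was at 262 CPM in resting and 139 CPM in mature WT cells and at 216 and 102 CPM among H2-Aa cit/cit cells, log2 ratios of -0.92 (-1.05 to -0.79) and -1.08 (-1.32 to -0.86). Among cells of at least 15%, the levels were 83.9 and 72.9 CPM in WT and 78.2 and 74.6 CPM among H2-Aa cit/cit cells, with both intervals reaching across 0, and from 8 to 15% the log2 ratios were -0.40 and -0.47. Cd80 thus stood lower in mature than in resting cells where both had few ribosomal UMIs. Of the mature cells, 994 of 1939 in WT and 418 of 1278 in H2-Aa cit/cit were under 8%. The median share was 7.80% in mature and 13.8% in resting WT cells (10.4% and 17.7% among H2-Aa cit/cit cells). The part of the ribosomal share in these ratios was not tested.

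Over the bins of maturation UMIs, Cd80 was highest at intermediate sums and lower again in the most mature cells. In WT it was at 135 CPM at 0 UMIs, 173 CPM at 2 to 3, 169 CPM at 4 to 7 and 108 CPM at 16 or more, and in H2-Aa cit/cit at 103, 137, 101 and 90.0 CPM. The median ribosomal share of these bins also differed, at 12.2, 10.9, 5.96 and 7.90% in WT and 16.3, 13.5, 11.8 and 9.67% in H2-Aa cit/cit. Its part in this profile was not tested. In the cDC1 lineage the order was the other way: 76.1 CPM in resting and 93.5 CPM in mature WT cells (0.30, 0.08 to 0.52), and 41.7 and 67.6 CPM among H2-Aa cit/cit cells (0.70, 0.19 to 1.17). In the comparison named cDC2 lineage, both resting cDC2-like classes and mature cells without cDC1 genes, it was at 152 and 133 CPM in WT. Among H2-Aa cit/cit cells it was at 110 and 91.8 CPM. The WT log2 ratio in the cDC2 lineage, -0.20, was no farther from 0 than the median over all genes, -0.22, and so has no direction of its own. The difference between lineages was not tested.

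Cd86 (chromosome 16, 36603869 to 36666081, minus strand) was at 205 CPM in resting and 187 CPM in mature WT cells and at 184 and 175 CPM among H2-Aa cit/cit cells. Its log2 ratios were -0.13 (-0.20 to -0.06) and -0.08 (-0.16 to 0.00). Among cells under 8% ribosomal share the ratios were -0.55 and -0.68. The lineages differed. Resting cDC1-like cells had the highest Cd86 of the classes with at least 50 cells in each library, 314 CPM (299 to 329) in WT and 266 CPM (255 to 277) among H2-Aa cit/cit cells, and the interval stood clear of the next class in WT but overlapped that of 61 macrophage-like cells in H2-Aa cit/cit (207 CPM, 156 to 269). Mature cells with cDC1 genes were at 181 and 178 CPM, log2 ratios of -0.80 (-0.94 to -0.66) and -0.58 (-0.87 to -0.30). In the cDC2 lineage, Cd86 was at 169 CPM in resting and 189 CPM in mature WT cells (0.15, 0.07 to 0.23) and at 165 and 175 CPM among H2-Aa cit/cit cells (0.08, 0.00 to 0.17). In WT this small positive ratio was not seen within ranges of ribosomal share, where it was -0.38 (-0.51 to -0.25) under 8%, -0.15 (-0.28 to -0.02) from 8 to 15% and -0.01 (-0.27 to 0.24) from 15%, and -0.70, -0.34 and 0.30 in H2-Aa cit/cit. The resting cDC2-like cells gated on Ccr2 and Mgl2 were low in Cd86, at 76.4 and 83.3 CPM, against 180 and 174 CPM in the other resting cDC2-like cells.

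**Figure D2:**
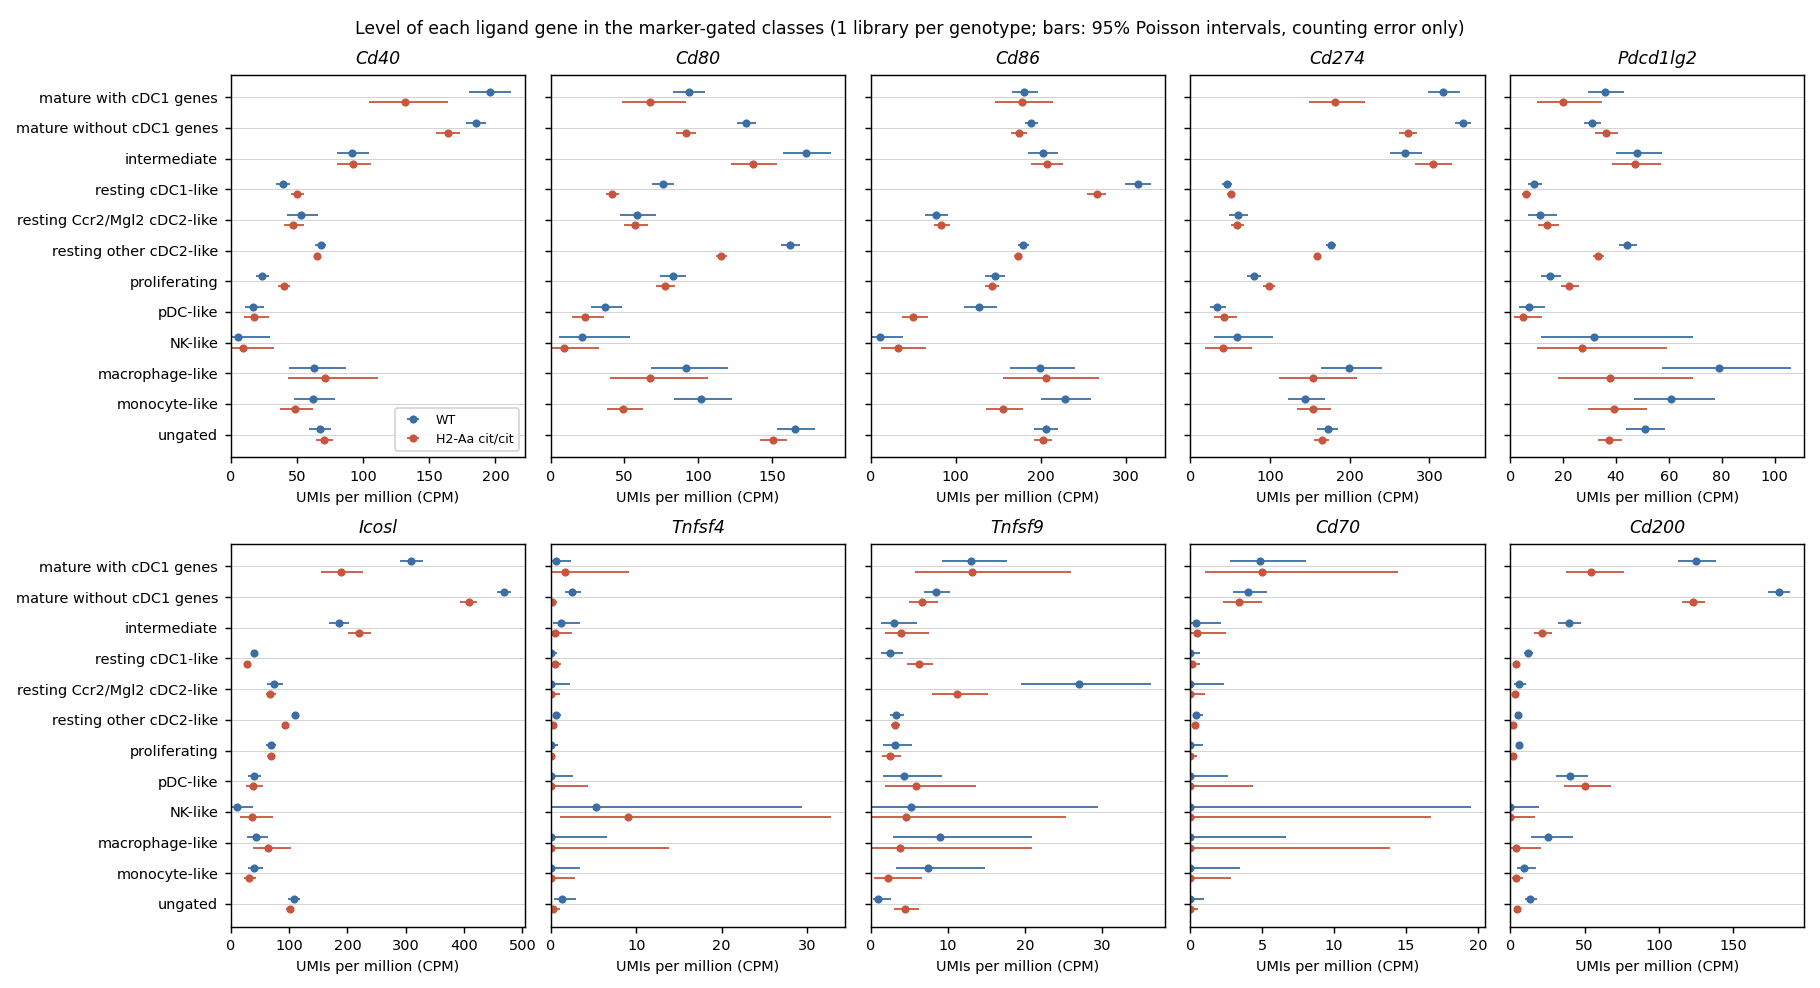
CPM of each ligand gene (x axis, from 0, a scale per gene) in 12 marker-gated classes of the WT and H2-Aa cit/cit libraries, with 95% Poisson intervals for counting error. Icosl, Cd40 and Cd200 stand out in mature cells without cDC1 genes and, in WT, also in those with them (309, 196 and 125 CPM). Cd86 stands out in resting cDC1-like cells (314 and 266 CPM), and Cd200 also in pDC-like cells (40.5 and 50.4 CPM). Cd274 stands out in the mature classes of WT alone. In H2-Aa cit/cit it is at 305 CPM in intermediate cells and 273 CPM in mature cells without cDC1 genes, with overlapping intervals. NK-like and macrophage-like cells are few, so their intervals are wide.

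The PD-1 ligand genes are neighbors on chromosome 19, Cd274 from 29367455 to 29388095 and Pdcd1lg2 from 29410919 to 29471161, both on the plus strand with 43464 bases between their starts. A gene of the other strand overlaps each, AC119228.1 and A930007I19Rik, and how strand was used in the counting is not given in the sources used here. Cd274 was at 136 CPM (131 to 141) in resting and 337 CPM (328 to 346) in mature WT cells, and at 130 (127 to 133) and 267 CPM (256 to 278) among H2-Aa cit/cit cells. Its log2 ratios were 1.31 (1.24 to 1.38) and 1.04 (0.97 to 1.11). The difference was larger in the cDC1 lineage, where resting cells had 45.7 and 50.9 CPM and mature cells 317 and 181 CPM (log2 ratios 2.80 and 1.83). In the cDC2 lineage it was smaller, from 165 to 342 CPM in WT (1.05) and from 149 to 273 CPM among H2-Aa cit/cit cells (0.87). Among cells under 8% ribosomal share, Cd274 was at 253 CPM in resting and 348 CPM in mature WT cells, and at 240 and 299 CPM among H2-Aa cit/cit cells, ratios under 2-fold (0.46, 0.35 to 0.57, and 0.32, 0.16 to 0.48). From 8 to 15% the log2 ratios were 0.97 and 0.42, also under 2-fold, and among cells of at least 15% they were 1.37 and 1.12.

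Along maturation, Cd274 was already high at low sums: 173 CPM at 1 UMI, 270 CPM at 2 to 3 and 349 CPM at 4 to 7 in WT, after which it stayed between 317 and 340 CPM. Among H2-Aa cit/cit cells it was at 203, 305 and 309 CPM in the same bins, then at 279 CPM at 8 to 15 and 231 CPM (215 to 247) at 16 or more. At 16 or more, the intervals of the libraries were apart, with 340 CPM (329 to 352) in WT. The H2-Aa cit/cit cells in that bin were shallower, with a median of 6246 against 8154 UMIs, and had a ribosomal share of 9.67% against 7.90%.

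Pdcd1lg2 stood within 2-fold over all cells but by summed UMIs was higher in mature cells of the cDC1 lineage. It was at 33.3 CPM in resting and 31.9 CPM in mature WT cells (log2 ratio -0.06, -0.23 to 0.11) and at 26.5 and 35.1 CPM among H2-Aa cit/cit cells (0.41, 0.22 to 0.59). In the cDC1 lineage it went from 8.91 CPM (6.55 to 11.9) to 35.7 CPM (29.4 to 43.1) in WT and from 5.99 to 19.8 CPM among H2-Aa cit/cit cells (1.72, 0.68 to 2.65), the latter from 12 UMIs in the mature cells. In the cDC2 lineage it went from 41.1 to 30.9 CPM in WT (-0.41, -0.60 to -0.23) and from 31.4 to 36.2 CPM among H2-Aa cit/cit cells (0.21, 0.01 to 0.39). Over the bins it peaked at 4 to 7 maturation UMIs in both libraries, at 52.0 CPM in WT and 53.3 CPM among H2-Aa cit/cit cells, and was at 24.9 and 23.9 CPM at 16 or more. Its ratio also turned with the ribosomal share, -0.97 and -0.86 among cells under 8%, -0.34 and 0.05 from 8 to 15% and 0.84 and 0.67 among cells of at least 15%. Of the classes with at least 50 cells in each library, macrophage-like cells came first in WT, at 79.0 CPM (57.4 to 106), and intermediate cells in H2-Aa cit/cit, at 47.1 CPM (38.6 to 57.0), where macrophage-like cells were at 37.6 CPM (18.0 to 69.1). In both libraries the first interval overlapped that of the monocyte-like cells, at 60.9 and 39.4 CPM.

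**Figure D3:**
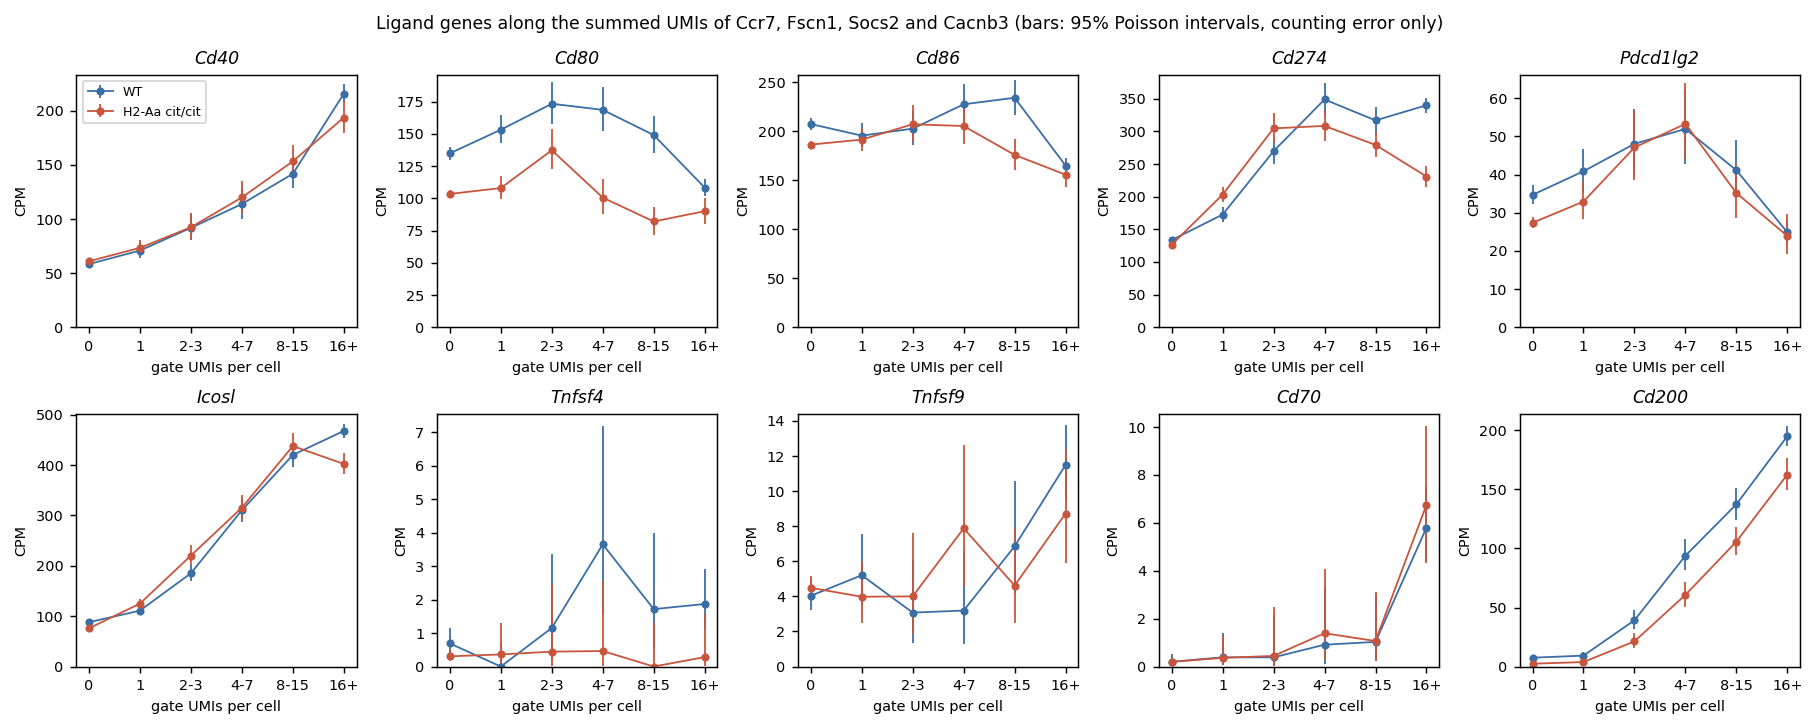
CPM of each ligand gene (y axis, from 0, a scale per gene) over bins of the summed UMIs of Ccr7, Fscn1, Socs2 and Cacnb3 per cell (x axis) in DC and ungated cells of both libraries, with 95% Poisson intervals for counting error. Cd40 and Cd200 stand higher in each further bin, Cd80 and Pdcd1lg2 peak at intermediate sums, and Cd70 stands out at 16 or more UMIs (5.80 and 6.75 CPM). Deeper cells reach higher sums, so depth moves with the bins, and the median ribosomal share differs between them as well.

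ICOSL binds ICOS on follicular helper, regulatory and effector T cells. Icosl (chromosome 10, 78069302 to 78083913, plus strand) was at 90.0 CPM (86.0 to 94.1) in resting and 436 CPM (426 to 447) in mature WT cells, and at 78.1 (75.5 to 80.7) and 392 CPM (379 to 406) among H2-Aa cit/cit cells. The log2 ratios of 2.28 (2.20 to 2.35) and 2.33 (2.26 to 2.40) differed by less than their counting error. In WT it went from 39.8 to 309 CPM in the cDC1 lineage and from 106 to 468 CPM in the cDC2 lineage. Among H2-Aa cit/cit cells it went from 27.8 to 188 CPM and from 90.3 to 408 CPM. Mature cells with cDC1 genes thus had less Icosl than those without, in both libraries, with intervals apart (290 to 330 against 456 to 481 CPM in WT, 155 to 226 against 394 to 422 CPM among H2-Aa cit/cit cells). Its ratio was above 2-fold in each ribosomal range, at 2.19 and 2.21 under 8%, 1.90 and 2.08 from 8 to 15% and 1.69 and 1.84 from 15%.

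CD200, a membrane glycoprotein that restrains myeloid cells, had the largest ratio of the 7 genes. Cd200 (chromosome 16, 45382135 to 45409053, minus strand) was at 6.80 CPM (5.74 to 7.99) in resting and 170 CPM (163 to 176) in mature WT cells, and at 2.27 (1.85 to 2.76) and 118 CPM (111 to 126) among H2-Aa cit/cit cells. The log2 ratios were 4.64 (4.40 to 4.89) and 5.70 (5.40 to 6.01), the larger one resting on the lower resting level. It was above 2-fold in each lineage and each ribosomal range of both libraries. At a sum of 2 to 3 maturation UMIs it was at 39.2 CPM in WT and 21.3 CPM among H2-Aa cit/cit cells, and at 16 or more at 195 and 163 CPM. Outside the mature and intermediate cells, pDC-like cells had the highest level, 40.5 CPM (30.7 to 52.5) in WT and 50.4 CPM (36.5 to 67.8) among H2-Aa cit/cit cells.

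The ligands of the TNF family were near the limit of detection, and none of them reached 10 CPM in mature or resting DC as a whole. CD70 binds CD27 and supports CD8 T cell priming. Cd70 (chromosome 17, 57145997 to 57149777, minus strand) had 6 UMIs in resting and 64 UMIs in mature WT cells (0.28 and 4.19 CPM), and 11 and 30 UMIs in H2-Aa cit/cit cells (0.25 and 3.52 CPM). The log2 ratios were 3.92 (2.71 to 5.41) and 3.83 (2.79 to 4.98). Mature WT cells with cDC1 genes had 15 UMIs and resting cDC1-like WT cells 0. Against a floor of 3 UMIs for the count of 0, the level was 8.56-fold higher, and the exact interval of the ratio starts at 6.14-fold. Of the 64 UMIs in mature WT cells 59 lay in cells with 16 or more maturation UMIs, and of the 30 in mature H2-Aa cit/cit cells 24. In proliferating, pDC-like, NK-like, macrophage-like, monocyte-like and ungated cells of both libraries Cd70 had 0 UMIs.

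Tnfsf9, which encodes the ligand of the receptor TNFRSF9 (chromosome 17, 57105325 to 57107757, plus strand, overlapped by Gm11110 on the other strand), was at 4.86 CPM in resting and 9.42 CPM in mature WT cells (log2 ratio 0.96, 0.58 to 1.33), and at 4.43 and 7.15 CPM among H2-Aa cit/cit cells (0.69, 0.25 to 1.11). Of the classes with at least 50 cells in each library, a resting class came first, with an interval that overlapped the next. Resting cDC2-like cells gated on Ccr2 and Mgl2 had 26.9 CPM (19.5 to 36.3) in WT, from 43 UMIs in 152 cells, and 11.2 CPM (7.99 to 15.2) among H2-Aa cit/cit cells, from 40 UMIs in 406 cells. The other resting cDC2-like cells were at 3.32 and 3.20 CPM. Mature cells with cDC1 genes were at 13.0 CPM (9.28 to 17.7) in WT and, from 8 UMIs in 39 cells, at 13.2 CPM (5.70 to 26.0) in H2-Aa cit/cit.

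Tnfsf4 (chromosome 1, 161395409 to 161418410, plus strand), whose product OX40L binds TNFRSF4, had 9 UMIs in resting and 32 UMIs in mature WT cells, and 14 and 2 UMIs in H2-Aa cit/cit cells. In mature cells without cDC1 genes the counts were 30 UMIs, spread over 19 of 1721 WT cells with at most 4 in a cell, and 1 UMI in 1239 H2-Aa cit/cit cells. The levels were 2.46 CPM (1.66 to 3.51) and 0.13 CPM (0.00 to 0.70), a log2 ratio of -4.28 (-9.63 to -1.69). Tnfsf4 lay under the minimum of 10 CPM everywhere, so it enters none of the counts of genes past a fold.

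To compare cells of different depth, 1500 UMIs were drawn from each cell, which excluded as too shallow 32 of 1939 mature and 49 of 2979 resting WT cells, and 15 of 1278 and 106 of 6177 from H2-Aa cit/cit mice. A thinned UMI of Icosl was then found in 47.0% (44.7 to 49.3) of mature and 13.0% (11.8 to 14.3) of resting WT cells, and in 44.7% and 11.5% of H2-Aa cit/cit cells. Without thinning the shares were 83.7% and 42.8%, and 83.4% and 39.1%. For Cd274 the thinned shares were 36.1% and 19.3% in WT and 30.2% and 17.6% among H2-Aa cit/cit cells, for Cd40 20.9% and 9.62%, and 19.3% and 9.13%, and for Cd200 22.0% and 0.85%, and 18.2% and 0.16%. Cd80 was found in fewer mature than resting cells, 15.6% (13.97 to 17.28) against 20.8% (19.3 to 22.3) in WT and 10.9% (9.26 to 12.8) against 15.8% (14.9 to 16.8) in H2-Aa cit/cit. The shares of Cd86 were 19.7% and 22.2%, and 17.7% and 20.4%, and those of Pdcd1lg2 3.99% and 6.28%, and 4.2% and 4.61%, the last pair against the order of its CPM. For comparison, pDC-like cells, with median depths of 10946 and 7478 UMIs, had thinned shares of 3.33% (0.92 to 8.31) and 2.86% (0.59 to 8.12) for Icosl and 0.83% (0.02 to 4.56) and 3.81% (1.05 to 9.47) for Cd40. By summed UMIs they had Icosl at 39.1 and 38.7 CPM. They were not shown to lack these mRNAs, so their shares do not measure a background. Resting DC as a whole, at median depths of 6696 and 6657 UMIs, lay above the pDC-like intervals for Icosl in both libraries and for Cd40 in WT. Their H2-Aa cit/cit share of Cd40 lay within the interval, which rests on 4 of 105 pDC-like cells. By summed UMIs, Cd40 was there at 17.6 CPM (9.83 to 29.0) in pDC-like cells and at least 47.2 CPM (40.4 to 54.9) in each resting class. Resting cDC1-like cells alone had Icosl shares of 4.79% (WT) and 5.19% (H2-Aa cit/cit), within the pDC-like intervals. Cd200 was found in 0 of 33 and 0 of 28 thinned NK-like cells, which by the limit of 3 counts allows a share of up to 9.09% and 10.7%, so these few cells do not tell whether its share in resting DC was above background.

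Mature cells more often held several of the ligands at once. After thinning, a mature cell had UMIs of 1.67 of the 10 genes on average in WT and 1.47 among H2-Aa cit/cit cells, against 0.93 and 0.80 in resting cells. At least 3 of the genes were detected in 22.2% of mature and 5.87% of resting WT cells, and in 17.1% and 4.55% of H2-Aa cit/cit cells. The highest number was 7 in a mature WT cell and 8 in a mature H2-Aa cit/cit cell. Mature cells with cDC1 genes held fewer on average than those without, 1.41 against 1.71 in WT and 1.21 against 1.47 in H2-Aa cit/cit. At least 3 genes were detected in 11.9% against 23.6% in WT, and in 17.9% against 17.1% in H2-Aa cit/cit, where the first value rests on 39 cells.

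Markers of other cell types were also compared between mature and resting cells. Resting cells were taken only from cells under the gates of these types, whereas mature cells were gated first. Higher levels in mature cells thus follow in part from the gating. The summed macrophage markers (C1qa, C1qb, C1qc and Vcam1) were at 86.9 CPM in mature and 8.83 CPM in resting WT cells and at 41.3 and 4.29 CPM among H2-Aa cit/cit cells, with 4 of 4 genes detected in each. The 3 monocyte markers were at 47.6 and 12.5 CPM in WT and 18.6 and 12.9 CPM among H2-Aa cit/cit cells, and the 4 T cell markers between 5.28 and 5.69 CPM in mature and at most 0.79 CPM in resting cells. The B cell markers were at 28.1 and 10.7 CPM in WT and 19.3 and 5.94 CPM among H2-Aa cit/cit cells. Cd3g was at 0 in mature WT cells and in resting cells of both libraries. The 8 neutrophil lineage markers were at 40.0 CPM in mature and 10.9 CPM in resting H2-Aa cit/cit cells and at 2.75 and 2.45 CPM in WT, where Elane and Prtn3 were at 0. The 5 NK cell markers were at 1.50 CPM or less, with Ncr1 and Prf1 at 0 in mature H2-Aa cit/cit cells. When mature cells with gate markers of such types were left out, which left 1852 WT and 1259 H2-Aa cit/cit cells (resting cells had none, by the order of the gates), the count of ligand genes past 2-fold was again 4 in each library.

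The other genes of these pathways were taken from hand-written lists. Of 10 receptors and partners of the ligands, 6 reached 10 CPM, and 4 were more than 2-fold higher in mature DC of both libraries and 1 lower. Of the 4, Tnfrsf4, Tnfrsf9 and Rgmb passed the minimum only through the mature cells, where they were high, so the count and the median of this list are no support for a direction. Tnfrsf4, the receptor of OX40L, was at 2.27 CPM in resting and 142 CPM in mature WT cells and at 1.24 and 61.6 CPM among H2-Aa cit/cit cells. Tnfrsf9, the receptor of TNFSF9, was at 1.85 and 51.2 CPM, and 1.17 and 39.2 CPM, and Icos, the receptor of ICOSL, at 29.9 and 134 CPM, and 17.6 and 76.1 CPM. Cells of the mature gate thus held mRNA of receptors known mainly from T cells. Doublets were not removed. The T cell markers were also higher in mature than in resting cells, at 5.69 and 0.74 CPM in WT and 5.28 and 0.79 CPM in H2-Aa cit/cit. These receptors were not measured again without cells holding T cell markers, so the part of T cell mRNA in their levels was not tested. Rgmb, another binding partner of PD-L2, was at 8.37 and 27.9 CPM in WT (log2 ratios 1.74 and 1.23), and Cd200r1, the receptor of CD200, was lower in mature cells, at 45.5 and 12.3 CPM in WT and 48.7 and 16.5 CPM among H2-Aa cit/cit cells. The median log2 ratio of the 6 genes was 1.95 in WT and 1.67 among H2-Aa cit/cit cells.

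Of 27 genes of CD40 signaling and NF-kB, 27 reached 10 CPM in each library and 17 were more than 2-fold higher in mature DC of both, with 0 lower and median log2 ratios of 1.22 and 1.38. The 5 highest were Birc2 and Bcl2l1, which restrain cell death, the adaptor Traf1, the NF-kB subunit Relb and the feedback enzyme Tnfaip3. Relb was at 381 CPM in resting and 1702 CPM in mature WT cells and at 252 and 1577 CPM among H2-Aa cit/cit cells. Of 17 measured genes of interferon signaling and PD-L1 protein control, 1 was higher in both (Irf1, 98.0 and 432 CPM in WT, 127 and 309 CPM among H2-Aa cit/cit cells) and 1 lower (Ifngr1, a chain of the interferon gamma receptor, 492 and 99.4 CPM, and 452 and 149 CPM), with medians of 0.07 and 0.09. Over all genes, 9.59% were past 2-fold higher and 8.11% lower in both libraries, and 1 of 17 either way is not above that.

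Among 36 other co-signaling genes, 16 were measured in both libraries, and 5 were more than 2-fold higher in mature DC of both and 5 lower. The shares over all genes were 9.59% higher and 8.11% lower in both. The higher ones were Pvr, a ligand of the receptors CD226 and TIGIT, the maturation marker Cd83, Sema7a, the adhesion gene Icam1 and Nectin1. Cd83 was at 166 CPM in resting and 978 CPM in mature WT cells and at 131 and 820 CPM among H2-Aa cit/cit cells. The lower ones were Tnfsf8 (CD30 ligand), Lgals9 (galectin-9), Havcr2 (TIM-3), Cd24a and Cd48. Havcr2 was at 331 and 53.7 CPM in WT and 291 and 99.4 CPM among H2-Aa cit/cit cells. The medians were 0.08 and 0.26. Of 23 other genes known from mature DC, 20 were measured in both and 18 were higher in both with 0 lower, led by Il12b, Nudt17, Zmynd15, Ccl22 and Cd63, with medians of 3.98 and 3.88. Il12b, Nudt17, Zmynd15 and Ccl22 were under 10 CPM in resting cells of both libraries and passed the minimum only through the mature cells, as did Pvr and, among the NF-kB genes, Bcl2l1. The mature DC list shares Tnfrsf9 with the receptors.

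Levels over 10 classes of at least 50 cells in both libraries, 20 points in all, were compared between each ligand gene and 9059 other genes. The points share libraries, depth and ribosomal share, and the correlations are given as a description. Closest to Cd40 were Rnf19b, Tnfrsf11a and Ppp1r15a (Pearson's r of log2 levels 0.93, 0.93 and 0.92), to Cd80 Fcrl1, Adam22 and Rnf145 (0.95, 0.95 and 0.94) and to Cd86 Dnase1l3, Ccser1 and Usp12 (0.88, 0.86 and 0.85). Closest to Cd274 were F730043M19Rik, Gm6209 and Flvcr1 (0.97 each), to Pdcd1lg2 Ggta1, Myo1e and Trps1 (0.94, 0.94 and 0.93), to Icosl Aebp2, Gm47922 and Zfp296 (0.94 each) and to Cd200 Apobec3, Cyth1 and Fut8 (0.93, 0.90 and 0.89). No gene of the 10 was among the 3 closest to another.

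The labels also set the genotypes against each other, and the ligand genes were compared within 4 classes. In mature cells without cDC1 genes (1721 WT and 1239 H2-Aa cit/cit cells), 7 of the 10 genes reached 10 CPM and 0 differed by more than 1.5-fold, against 7.74% of all measured genes higher and 4.41% lower in H2-Aa cit/cit. Cd200 and Cd80 lay closest to that limit. Cd200 was at 181 CPM in WT and 123 CPM among H2-Aa cit/cit cells (a log2 ratio of -0.56, -0.67 to -0.45) and Cd80 at 133 and 91.8 CPM (-0.53, -0.66 to -0.40). Cd274 was at 342 and 273 CPM (-0.32), Icosl at 468 and 408 CPM (-0.20), Cd40 at 185 and 164 CPM (-0.17), Cd86 at 189 and 175 CPM (-0.11) and Pdcd1lg2 at 30.9 and 36.2 CPM (0.23, 0.00 to 0.46). Cd70, at 4.01 and 3.41 CPM, differed by less than its counting error (-0.24, -0.97 to 0.47), and so did Tnfsf9, at 8.52 and 6.69 CPM (-0.35, -0.85 to 0.14).

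**Figure D4:**
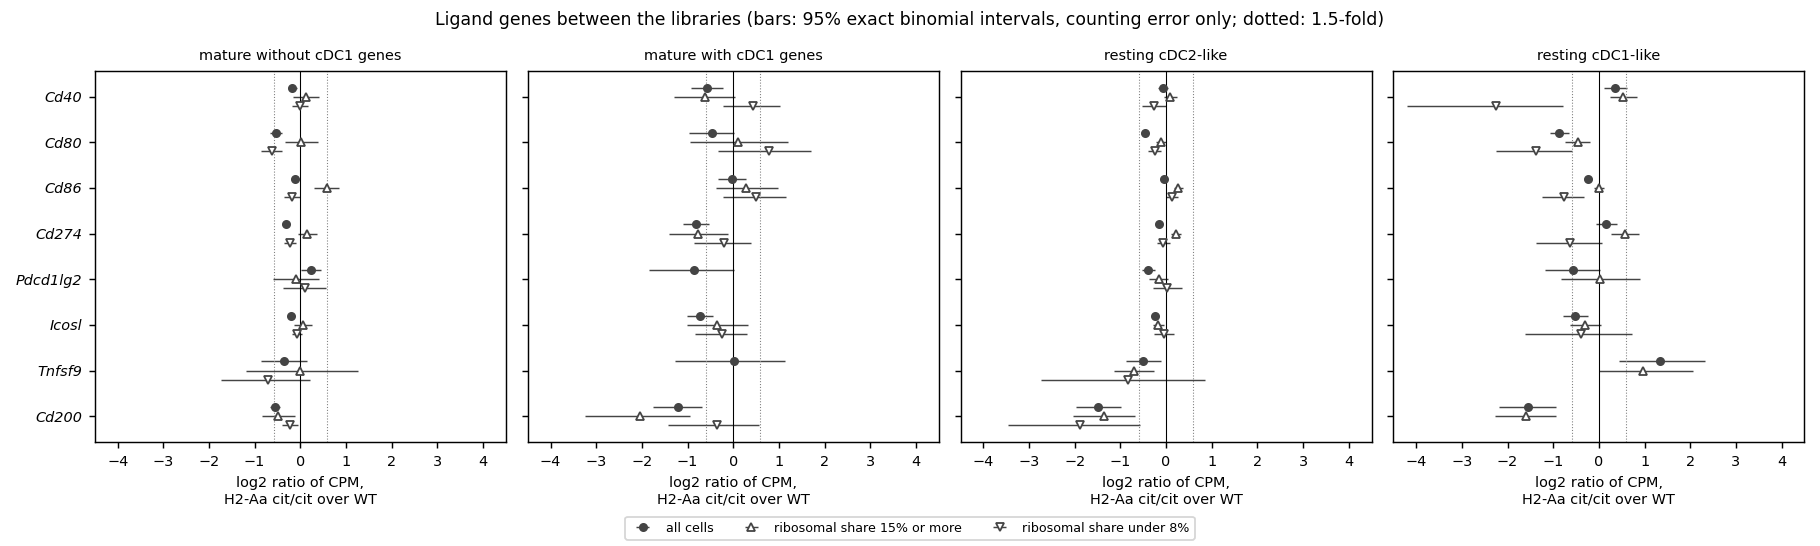
Log2 ratio of CPM among H2-Aa cit/cit cells over WT cells (x axis) for 8 ligand genes in 4 classes, over all cells and within cells of at least 15% or under 8% ribosomal protein UMIs, with 95% exact binomial intervals for counting error. In mature cells without cDC1 genes the all-cell ratios lie between -0.56 and 0.23, and in mature cells with cDC1 genes, of which the H2-Aa cit/cit library had 39, intervals are wide. Intervals wider than 4 log2 units are left out.

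The ribosomal share moved with these differences as well, with medians of 7.78% (WT) and 10.3% (H2-Aa cit/cit) among mature cells without cDC1 genes. Among cells of at least 15%, Cd80 was at 75.3 and 76.2 CPM (0.02, -0.34 to 0.38), whereas among cells under 8% it was at 156 and 101 CPM (-0.63, -0.86 to -0.40) and from 8 to 15% at 123 and 97.9 CPM (-0.32, -0.52 to -0.13). Cd200 was lower among H2-Aa cit/cit cells in each range, at 218 and 187 CPM (-0.22, -0.39 to -0.05) under 8% and at 89.8 and 64.3 CPM (-0.48, -0.83 to -0.13) from 15%, with -0.35 (-0.52 to -0.19) between. For Cd274, the log2 ratio was -0.22 (-0.36 to -0.09) under 8%, -0.36 (-0.47 to -0.25) from 8 to 15% and 0.15 (-0.06 to 0.36) from 15%. For Cd40 and Icosl, the intervals reached across 0 in each range. Cd86 was higher in H2-Aa cit/cit cells from 15%, at 112 and 166 CPM (0.57, 0.30 to 0.85).

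**Figure D5:**
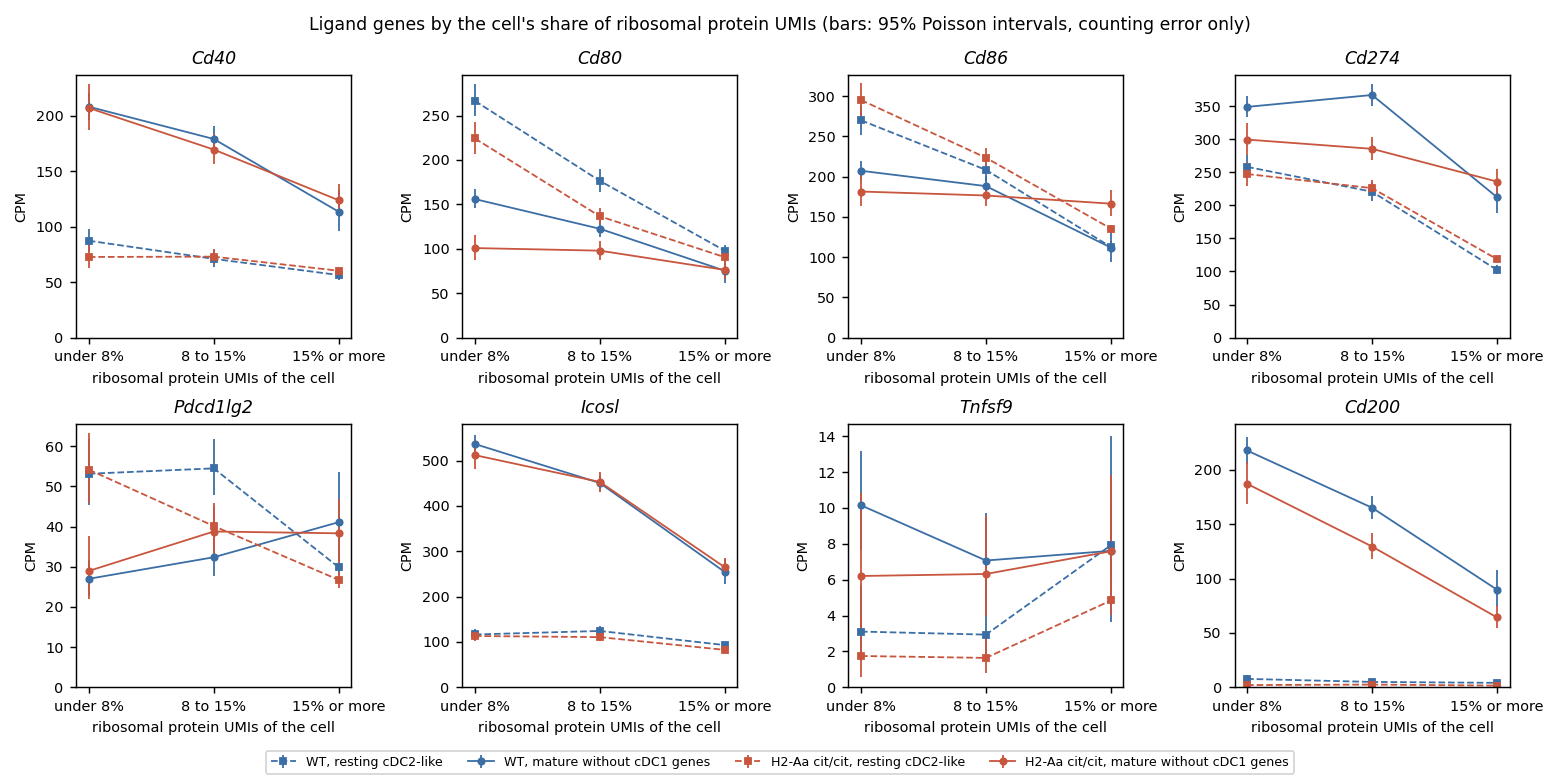
CPM of 8 ligand genes (y axis, from 0, a scale per gene) by the ribosomal protein share of the cell's UMIs (x axis) in resting cDC2-like cells and mature cells without cDC1 genes of both libraries, with 95% Poisson intervals for counting error. Cd80 of resting cDC2-like cells stands at 267 and 224 CPM under 8% and at 97.8 and 90.5 CPM from 15%, and their log2 ratio between the libraries is nearer 0 within each range (-0.25, -0.37 and -0.11) than over all cells (-0.47), whereas that of mature cells is not under 8% (-0.63 against -0.53).

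Mature cells with cDC1 genes gave 8 measured genes, of which 4 were more than 1.5-fold lower in H2-Aa cit/cit and 0 higher. Here 36.4% of all measured genes were past 1.5-fold higher and 16.6% past it lower, and the median over all genes was 0.28, so many genes passed the limit either way. The lower levels were not particular to the ligand genes, whose median log2 ratio was -0.64. Of 21 other mature DC genes, 17 were past the limit lower and 0 higher (median -1.31). Of 27 genes of CD40 signaling and NF-kB, 17 were lower and 2 higher (-0.86), and of 14 other co-signaling genes 4 lower and 4 higher (-0.27). Cd200 was at 125 CPM in WT and 54.4 CPM among H2-Aa cit/cit cells (-1.20, -1.76 to -0.69), Cd274 at 317 and 181 CPM (-0.81, -1.10 to -0.52), Icosl at 309 and 188 CPM (-0.72, -1.01 to -0.44) and Pdcd1lg2 at 35.7 and 19.8 CPM (-0.85, -1.85 to 0.01). The H2-Aa cit/cit levels came from 39 cells, with a median ribosomal share of 15.3% against 7.93% in WT, and the macrophage markers in this class were at 154 CPM in WT and 84.1 CPM among H2-Aa cit/cit cells. The part of these values and of doublets in the result was not tested. When the mean over cells of counts per 10000 was used in place of summed UMIs, 0 of the genes were past 1.5-fold, with log2 ratios of -0.42 for Cd200, -0.34 for Cd274, -0.42 for Icosl and -0.01 for Pdcd1lg2. With a gate of maturation UMIs per 10000, which left 199 WT and 21 H2-Aa cit/cit cells, 2 genes were past the limit higher and 1 lower, and among cells under 8% ribosomal share, 8 of them from H2-Aa cit/cit mice, 3 higher and 1 lower.

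Resting cDC2-like cells, 2471 WT and 5536 H2-Aa cit/cit cells, had 6 measured genes and 0 past 1.5-fold, against 2.42% of all genes higher and 3.23% lower. Cd80 came closest, at 152 CPM (146 to 158) in WT and 110 CPM (106 to 113) among H2-Aa cit/cit cells, a log2 ratio of -0.47 (-0.54 to -0.40). It was smaller within the ranges of ribosomal share, -0.25 (-0.40 to -0.10) under 8%, -0.37 (-0.51 to -0.23) from 8 to 15% and -0.11 (-0.23 to 0.00) from 15%. Pdcd1lg2 was at 41.1 and 31.4 CPM (-0.39, -0.53 to -0.25), with 53.1 and 54.1 CPM under 8%. Cd40 at 66.4 and 63.6 CPM and Cd86 at 169 and 165 CPM had intervals that reached across 0. Cd200 was under the minimum, at 5.08 and 1.82 CPM (-1.48), and was lower among H2-Aa cit/cit cells under 8%, at 7.77 and 2.10 CPM, and from 15%, at 4.13 and 1.60 CPM, while from 8 to 15% the interval reached across 0 (-0.97, -1.98 to 0.01).

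In resting cDC1-like cells, 508 WT and 641 H2-Aa cit/cit cells, 2 of 6 measured genes were more than 1.5-fold lower in H2-Aa cit/cit and 0 higher, against 8.71% of all genes higher and 7.85% lower. Cd80 was at 76.1 CPM (68.8 to 83.9) and 41.7 CPM (37.5 to 46.2), a log2 ratio of -0.87 (-1.08 to -0.66), and Cd200 at 12.1 and 4.15 CPM (-1.55, -2.18 to -0.94). Cd200 passed the minimum of 10 CPM only through the WT cells, where it was higher. Within cells of at least 15% ribosomal share the ratio of Cd80 was -0.47 (-0.74 to -0.19) and that of Cd200 -1.60 (-2.27 to -0.93), and from 8 to 15% both intervals reached across 0. Cd40 went the other way, at 39.3 and 50.4 CPM (0.36, 0.12 to 0.60), but not among the few cells under 8%, with 35 and 4 UMIs (-2.26, -4.21 to -0.78). The H2-Aa cit/cit cells of this class were deeper, with a median of 13662 against 8771.5 UMIs.

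In all 4 of these classes Cd200 was lower in H2-Aa cit/cit cells, under summed UMIs, the mean over cells and median ratio scaling alike (-0.61 to -0.45, -1.40 to -0.42, -1.69 to -1.44 and -1.65 to -1.52 in the order given above). In the resting classes these ratios rest on 83 and 65 UMIs (cDC2-like) and 64 and 36 UMIs (cDC1-like), levels that were not shown to be above background. Cd80 was lower with intervals short of 0 in 3 of them. In the other, the mature cells with cDC1 genes, it was at 93.5 and 67.6 CPM (-0.47, -0.98 to 0.01), and its ratio was 0.77 under 8% and 0.10 from 15%, with intervals across 0, and -1.24 (-2.39 to -0.28) from 8 to 15%, with 9 UMIs in H2-Aa cit/cit. The 4 classes come from the same libraries and are not independent. In both mature classes the other mature DC genes were lower as well, with median log2 ratios of -0.50 (without cDC1 genes) and -1.31 (with them).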

How the data were processed

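The authors prepared 3′ libraries (10X Genomics) and, per the labels and Methods, made the UMI tables by running Cell Ranger 5.0.1 on GRCm38. The deposited values are these raw counts for called cells. Gene annotation and the treatment of intronic reads and strand are not given in the sources used here. Every cell had at least 200 genes and was kept (with up to 25% mitochondrial UMIs, 7806 WT and 11521 H2-Aa cit/cit cells, the numbers analyzed by the authors), with no removal of doublets. Classes were gated on raw UMIs of markers in a fixed order, and their names are those of the gates. UMIs were summed per class in Python 3.11.15 with numpy 2.4.6, pandas 2.3.3 and scipy 1.17.1, figures were drawn with matplotlib 3.10.9, and the ratio code was checked on simulated data. Positions are from GENCODE vM21. A gene counted as measured with at least 10 CPM in either class, and 2-fold (maturity) or 1.5-fold (genotype) was the limit. All 10 ligand genes are named. Of each other list, up to 5 genes per direction past 2-fold in both libraries, by mean log2 ratio, and for each ligand gene with 20 CPM in a class the 3 closest genes, are named. The genes, lists and tests were chosen with earlier results of these data known. The level of 1 marker gene of another cell type is not reported here.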

Additional observations from a re-analysis of the deposited data

Results flagged for a closer look

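Several ligand genes differed in direction between classes, or between the lineages as named by the gates, with counting intervals on opposite sides of 0. These differences were not tested. Between genotypes (log2 ratio of H2-Aa cit/cit to WT), Cd40 was higher in resting cDC1-like cells (0.359) and lower in mature cells without (-0.173) and with cDC1 genes (-0.567). Pdcd1lg2 was higher in mature cells without cDC1 genes (0.231) and lower in resting cDC2-like cells (-0.387). These directions, taken over all cells, did not all hold within ranges of ribosomal share. In mature cells without cDC1 genes the Cd40 interval reached across 0 in each range. Among the few resting cDC1-like cells under 8% Cd40 was lower, and Pdcd1lg2 was not lower in resting cDC2-like cells under 8%. Over both mature classes, Cd40 was at 114 (WT) and 120 CPM (H2-Aa cit/cit) at 4 to 7 maturation UMIs. It was at 142 and 153 CPM at 8 to 15 and at 216 and 194 CPM at 16 or more. Between mature and resting cells, Cd80 was higher in the cDC1 lineage (0.299 in WT, 0.697 among H2-Aa cit/cit cells) and lower in the cDC2 lineage (-0.2 and -0.259). Thinned shares in the WT cDC1 lineage went the other way, with Cd80 in 7.80% of mature and 11.0% of resting cells and overlapping intervals. The median over all genes in the cDC2 lineage was -0.22 in WT and -0.13 among H2-Aa cit/cit cells, so the WT value of Cd80 there has no direction of its own. In WT, Cd86 was lower in the cDC1 lineage (-0.795) and higher in the cDC2 lineage (0.155), whereas Pdcd1lg2 was higher in the cDC1 lineage (2 on the log2 scale) and lower in the cDC2 lineage (-0.412). The higher level of Cd86 in the WT cDC2 lineage did not hold within ranges of ribosomal share (-0.38 under 8%, -0.15 from 8 to 15%, -0.01 from 15%), nor did the lower level of Pdcd1lg2 there in the range from 15% (0.46). The mature cells with cDC1 genes in these comparisons numbered 218 from WT mice and 39 from H2-Aa cit/cit mice, and their ribosomal share and depth differed from those of the cells beside them.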

How the results depend on the processing

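No paired analysis was possible because each genotype had 1 library and no test was run, and leaving out a replicate was not possible for the same reason. Under the 13 alternatives, the 4 genes past 2-fold in mature DC became 3 to 6 in WT and 3 to 5 in H2-Aa cit/cit, all higher except 1 (Cd80) lower in H2-Aa cit/cit under 8% ribosomal UMIs. For genotype, the 4 genes (all lower) in mature cells with cDC1 genes became 0 when counts per 10000 were averaged over cells. The count there was 2 higher and 1 lower with maturation UMIs per 10000, and 3 higher and 1 lower under 8% ribosomal UMIs. The 0 genes in mature cells without cDC1 genes became 1 (lower) with maturation UMIs per 10000, with Ccr7 and Fscn1 alone, with the mean per 10000, with median ratio scaling, without a minimum CPM, and with cDC1 genes from 2 UMIs, and 2 (lower) under 8% ribosomal UMIs. The 2 genes (lower) in resting cDC1-like cells became 1 (lower) from 15% and 5 (lower) under 8% ribosomal UMIs. Without a minimum they became 5, as Tnfsf9, Tnfsf4 and Cd70 were added, each higher among H2-Aa cit/cit cells. UMIs of WT against H2-Aa cit/cit cells were 13 against 54 for Tnfsf9, 0 against 4 for Tnfsf4 and 0 against 1 for Cd70. The intervals of Tnfsf4 and Cd70 reached across 0. The 0 genes in resting cDC2-like cells became 2 (lower) without a minimum. The ribosomal ranges, cDC1 genes from 2 UMIs and leaving out the cell with the most UMIs of a gene were chosen after seeing the data. Of 740 log2 ratios, 611 stayed within their counting interval and 129 moved outside it (34 with at least 15% and 38 with under 8% ribosomal UMIs). Of the ratios past their limit in the main setting, 0 changed sign. Sign changes of the other ratios were not counted, and there were some, such as Cd40 in resting cDC1-like cells under 8% ribosomal UMIs. Median ratio scaling shifted mature against resting DC by -0.17 in WT, by -0.10 in H2-Aa cit/cit, and H2-Aa cit/cit against WT by 0.20 in mature cells with cDC1 genes and by less than 0.05 in the other classes. The causes were not tested. Depth limits Tnfsf4, Tnfsf9 and Cd70, which had at most 144 UMIs in mature DC.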
